A study of Homo sapiens with 15 samples.

Results

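The chemokine ligand genes were taken as every gene on the array whose annotated symbol is CCL or CXCL followed by a number, with CX3CL1, XCL1, PF4 and PPBP added by name. This gave 39 of the 17687 genes measured, each with 1 probe set. A reference gene table held 46 genes with such names, and CCL13, CCL14, CCL15, CCL3L1, CCL4, CCL4L1 and CCL4L2 were not analysed here. Transcripts were measured on 15 arrays of ASC52, a human stem cell line derived from adipose tissue and immortalised with telomerase, so that every group shares 1 genetic background. The group MSC (5 arrays) was left undifferentiated. The group MA (5 arrays) went into adipogenic medium 3 days after seeding, stayed there for 14 days to become mature adipocytes and then spent 7 days in control RPMI with 10% serum. The group DED (5 arrays) had the same differentiation, followed by 7 days in RPMI with 10% serum in which MDA-MB-231 cells, a breast carcinoma line of human origin, had been grown. The medium and harvest time of the MSC cells were not given, so DED against MA is the comparison in which only the conditioning of the medium differs. The labels do not state that arrays of a group came from different cultures, and p-values therefore cover the spread between these arrays alone, which may be technical.

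Chemokines are small secreted proteins that bind receptors on leukocytes and direct their migration along a gradient. Their names follow the spacing of cysteines near the amino terminus. Ligands of the CXC class with a glutamate-leucine-arginine (ELR) motif attract neutrophils through CXCR1 and CXCR2, the monocyte chemoattractants act mainly through CCR2, and CXCL12 holds haematopoietic cells in their niche through CXCR4. Fat tissue secretes several of them, and many are transcribed under control of NF-kappaB after exposure to IL-1, TNF or bacterial products. Atypical receptors bind chemokines without the usual G protein signal and can take them up or transport them.

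All levels are log2 intensities as deposited, so a difference of 1 is a doubling, and the 612 negative control probe sets set the background. Their median level over all arrays was 4.80, and 8.31 was the 95th percentile. On single arrays that percentile ran from 7.82 to 8.30 in MSC, 8.08 to 8.49 in MA and 8.29 to 8.90 in DED. The values over all arrays are used below. In at least 1 group, 33 of 39 chemokine ligand genes had a mean above the negative control median, against 85.2% of all genes. Only CXCL12, CCL2, CXCL5, CCL19 and CXCL2, 5 of 39, had a group mean above the 95th percentile, against 39.7% of all genes. At the 90th percentile, 7.15, CXCL6, CXCL8, CCL25 and CCL27 joined them, which made 9, and above the 99th percentile, 10.80, lay CXCL12 alone. The DED means of CCL19 and CXCL2 exceeded only 95.1% and 94.8% of the negative control values on the DED arrays. Most of this family was thus measured in the range of the negative controls, where a difference depends on background. Within groups the lowest correlation between arrays was 0.992 in MSC and MA and 0.982 in DED, between DED arrays 1 and 3. The 8 mesenchymal stem cell markers all lay above the 95th percentile in MSC, and 6 of them did so in MA and 6 in DED. Of 12 adipocyte markers 0 did so in MSC, 9 in MA and 7 in DED.

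**Figure D1:**
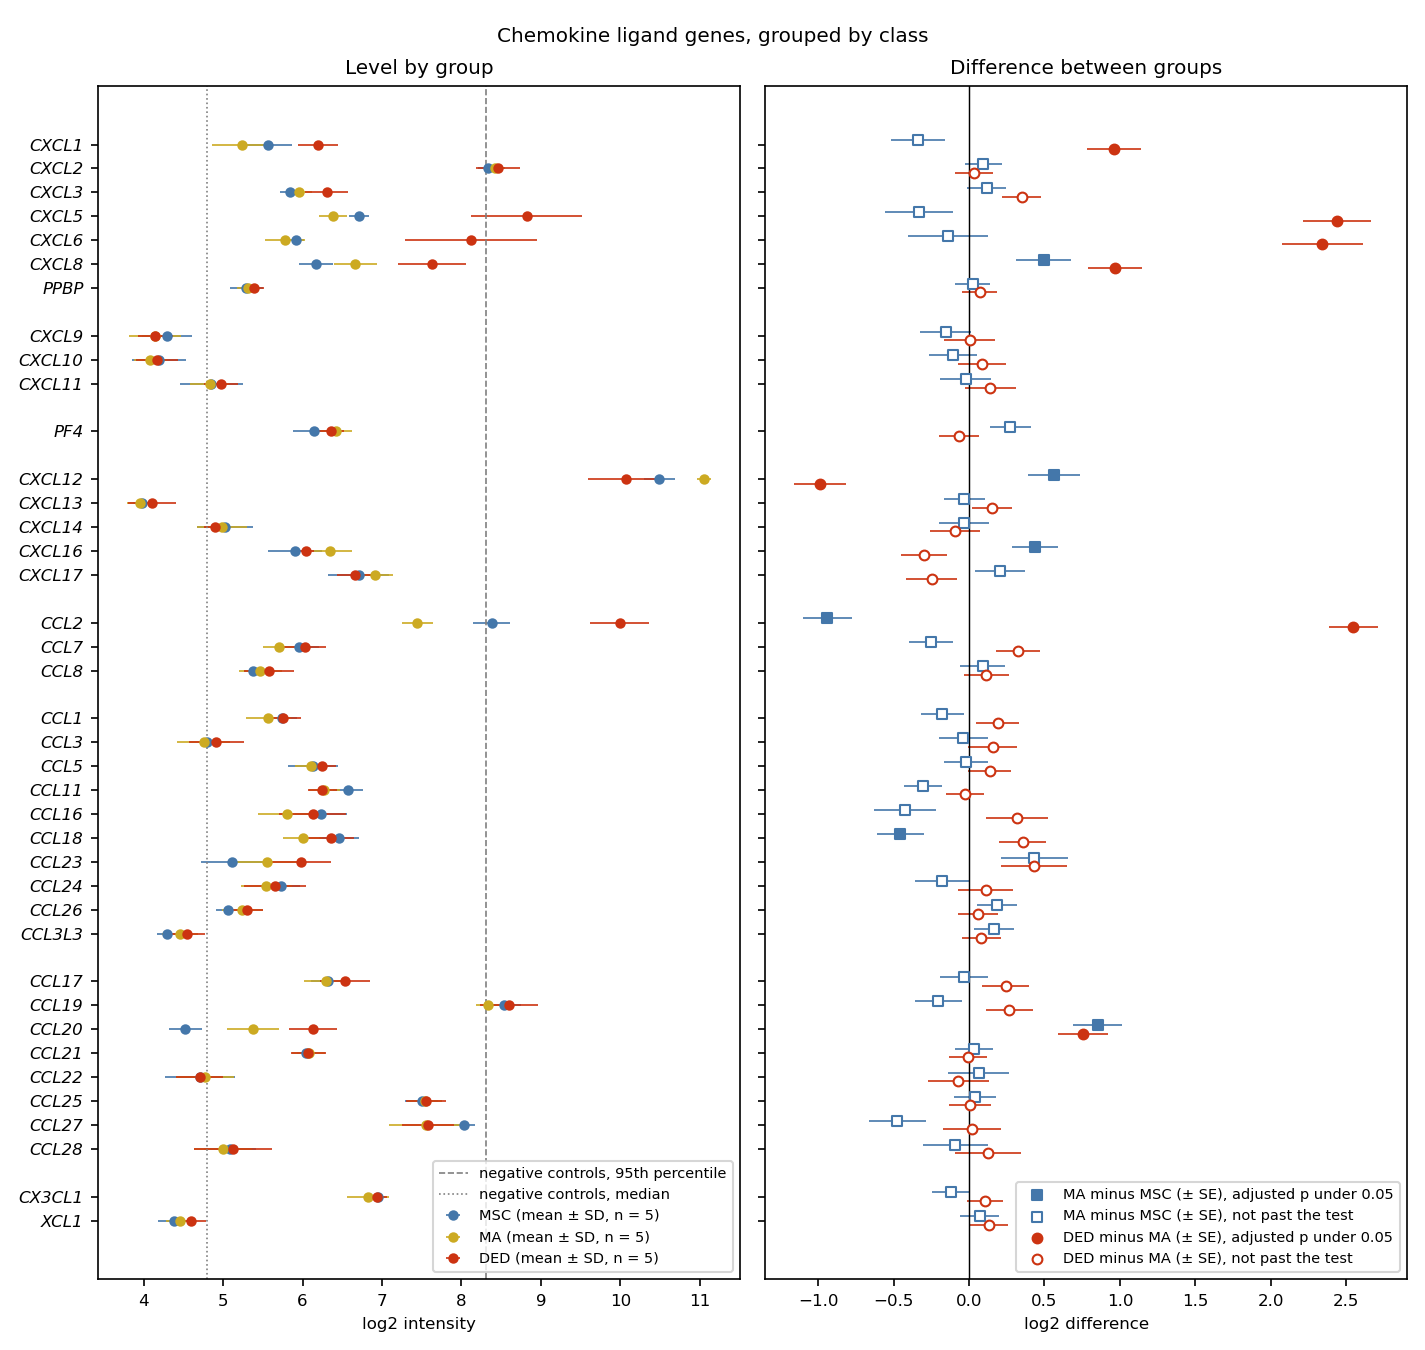
Chemokine ligand genes (39) by class, with the log2 intensity of MSC, MA and DED (mean ± SD, n = 5) at left beside the negative control median and 95th percentile, and the log2 differences MA minus MSC and DED minus MA (± SE) at right, filled where the gene passed the test. CXCL12 reaches 11.05 in MA, CCL2 reaches 9.99 in DED, and most other members lie under the negative control 95th percentile of 8.31.

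Cells in conditioned medium were compared with adipocytes in control medium. CCL2, CXCL5 and CXCL6 rose more than 5-fold in DED against MA, CXCL8, CXCL1 and CCL20 rose by less than 2-fold, and CXCL12 fell. These were 7 of the 39 genes past the test (limma adjusted p under 0.05), against 25.9% of all genes tested. Of the 39 members 6 rose, 15.4%, against 12.9% of all genes, and 1 fell, 2.56%, against 13.0% of all genes. Arrays of the groups did not overlap for 7 of 39 members, 17.9%, against 18.1% of all genes, and these were the same 7. Rises of 2-fold or more were seen in 3 members, 7.69%, against 2.80% of all genes. The median difference was 0.126 over the members and 0.018 over all genes. The number of calls was therefore not above the background of this comparison, and what follows is about named genes. In bulk RNA, fewer cells with a transcript and less of it per cell cannot be told apart.

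The ELR ligands held 4 of the 6 rises, among 7 measured, where 12.9% of all genes rose. Their genes lie together on chromosome 4, and a stretch of promoter is shown for those with a match to an NF-kappaB core motif (GGG and TTTCC with 2 bases of any kind between), because neighbours with nearly the same stretch differed in whether they passed the test. Sequences are from RefSeq, GRCh38.p14, on the strand of the gene, and capitals mark the match, which begins 79 (CXCL1), 78 (CXCL2), 79 (CXCL3), 91 (CXCL5) and 90 (CXCL6) bases before the start of the gene.
CXCL1: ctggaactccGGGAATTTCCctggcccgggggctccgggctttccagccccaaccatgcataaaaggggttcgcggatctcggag
CXCL2: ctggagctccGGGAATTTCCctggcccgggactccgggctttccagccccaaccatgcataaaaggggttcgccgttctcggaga
CXCL3: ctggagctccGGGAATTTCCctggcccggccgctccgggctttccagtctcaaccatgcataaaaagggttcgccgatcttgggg
CXCL5: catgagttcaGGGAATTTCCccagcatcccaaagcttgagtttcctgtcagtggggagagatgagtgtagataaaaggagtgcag
CXCL6: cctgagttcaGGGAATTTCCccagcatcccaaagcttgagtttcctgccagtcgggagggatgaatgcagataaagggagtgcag
CXCL8: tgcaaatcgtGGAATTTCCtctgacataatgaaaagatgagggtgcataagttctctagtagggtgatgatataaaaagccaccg
They span chr4:73869304-73869388 (CXCL1, plus strand), chr4:74099199-74099283 (CXCL2, minus), chr4:74038694-74038778 (CXCL3, minus), chr4:73998694-73998778 (CXCL5, minus), chr4:73836578-73836662 (CXCL6, plus) and chr4:73740468-73740552 (CXCL8, plus). CXCL8 does not hold the NF-kappaB core motif as spelled here, which does not mean that it lacks an NF-kappaB site. Its capitals mark GGAATTTCC, 91 bases before its start. This motif was added after the sequences had been seen and is contained in the match of the other 5.

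A promoter window of 250 bases before to 50 after the start was held for 29 of the 39 genes. It was missing for CCL11, CCL16, CCL17, CCL2, CCL21, CCL5, CX3CL1, CXCL16, PF4 and XCL1. On either strand the NF-kappaB core motif was found in 6 of the 29, the 5 above and CCL20, and in 1.91% of all 35116 windows. GGAATTTCC was found in 8, adding CXCL8, CXCL10 and CXCL11 and losing CCL20, and in 0.461% of all windows. The interferon response motif (GAAA and GAAA with 2 bases of any kind between) was found in CXCL9 and CXCL10 and in 3.57% of all windows. The AP-1 motif TGANTCA was found in 7 members, CXCL8 among them, and in 7.71% of all windows. The C/EBP-like TTGCNNAA was found in 5 (10.5% of all windows) and TATAAA in 13 (11.5%). Over the 250 bases before the start, CXCL5 and CXCL6 were 85.3% identical, CXCL1 and CXCL3 81.4%, CXCL2 and CXCL3 73.3%, and CXCL1 and CXCL2 71.4%, while CXCL1 and CXCL5 were 53.1% identical. Members were counted as genes and the background as single windows, so these shares are not strictly alike. Matches in such related promoters are not separate observations. A match is a description of the letters and was not tested as a binding site.

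CXCL5, a neutrophil attractant known from inflamed epithelium and fat, read 6.85, 6.59, 6.81, 6.58 and 6.75 in MSC arrays 1 to 5. It read 6.69, 6.27, 6.31, 6.25 and 6.40 in the MA arrays. In the DED arrays it read 7.87, 8.42, 9.15, 8.99 and 9.67. All DED arrays lay above all others, with array 1 lowest. The difference was 2.44 (SE 0.226, limma adjusted p = 6.7e-08), a fold of 5.41, against MA and 2.10 (limma adjusted p = 2.3e-07) against MSC. MA and MSC differed by -0.33 (limma adjusted p = 0.3).

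CXCL6, the ELR ligand closest in sequence to CXCL5, read 5.96, 6.01, 5.78, 6.0 and 5.84 in MSC. It read 6.10, 5.87, 5.85, 5.64 and 5.43 in MA. In DED it read 7.27, 8.42, 7.21, 9.04 and 8.66, with arrays 1 and 3 more than 1 unit under the rest and still above every MSC and MA array. Its mean in DED, 8.12 ± 0.833 (SD, n = 5), stayed under the negative control 95th percentile. The difference from MA was 2.34 (SE 0.267, limma adjusted p = 1.1e-06), a fold of 5.07, and it was 2.93 without DED arrays 1 and 3. Against MSC it was 2.20 (limma adjusted p = 1.2e-06), and MA and MSC differed by -0.14 (limma adjusted p = 0.75).

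CXCL8, which encodes interleukin-8, was the ELR ligand that also passed the test between MA and MSC. It read 5.93, 6.51, 6.12, 6.13 and 6.15 in MSC. It read 6.82, 6.84, 6.85, 6.58 and 6.22 in MA, and MA array 5 overlapped MSC. In DED it read 7.69, 8.32, 7.26, 7.27 and 7.60, above all other arrays. DED exceeded MA by 0.97 (SE 0.180, limma adjusted p = 0.00036) and MSC by 1.46 (limma adjusted p = 1.5e-06). MA exceeded MSC by 0.49 (limma adjusted p = 0.04), a call that was lost without any of MSC arrays 1, 3, 4 and 5 or MA arrays 1 to 4 (limma adjusted p up to 0.1).

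CXCL1, CXCL2 and CXCL3, the close relatives first described as GRO proteins, did not all pass the test. CXCL1 read 5.70, 5.28, 6.0, 5.30 and 5.57 in MSC, 5.17, 5.27, 4.68, 5.73 and 5.31 in MA, and 6.32, 6.01, 5.96, 6.10 and 6.57 in DED. Every DED array lay above every MA array, and DED array 3 lay under MSC array 3. The difference was 0.96 (SE 0.177, limma adjusted p = 0.00033) against MA and 0.62 (limma adjusted p = 0.0094) against MSC.

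CXCL3 read 5.84, 5.68, 5.76, 6.0 and 5.90 in MSC, 5.86, 5.78, 5.98, 6.21 and 5.94 in MA, and 6.60, 6.53, 6.07, 6.33 and 5.98 in DED. DED overlapped MA, with a difference of 0.35 (SE 0.129, limma adjusted p = 0.053), and exceeded MSC by 0.47 (limma adjusted p = 0.0075). CXCL2 read 8.43, 8.22, 8.48, 8.34 and 8.19 in MSC, 8.48, 8.59, 8.32, 8.30 and 8.45 in MA, and 8.94, 8.44, 8.35, 8.32 and 8.26 in DED. Its groups overlapped, and the difference of DED from MA was 0.03 (SE 0.125, limma adjusted p = 0.89). The differences between the genes themselves were not tested. Probe sequences were not used here, so signal shared between near-identical transcripts such as CXCL1, CXCL2 and CXCL3, CXCL5 and CXCL6, or CCL3 and CCL3L3 cannot be told apart. CXCL1, CXCL2, CXCL3 and CCL19 are given array by array after their values had been seen. The last ELR ligand, PPBP, a platelet product, had group means from 5.29 to 5.39 and passed in no comparison.

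**Figure D2:**
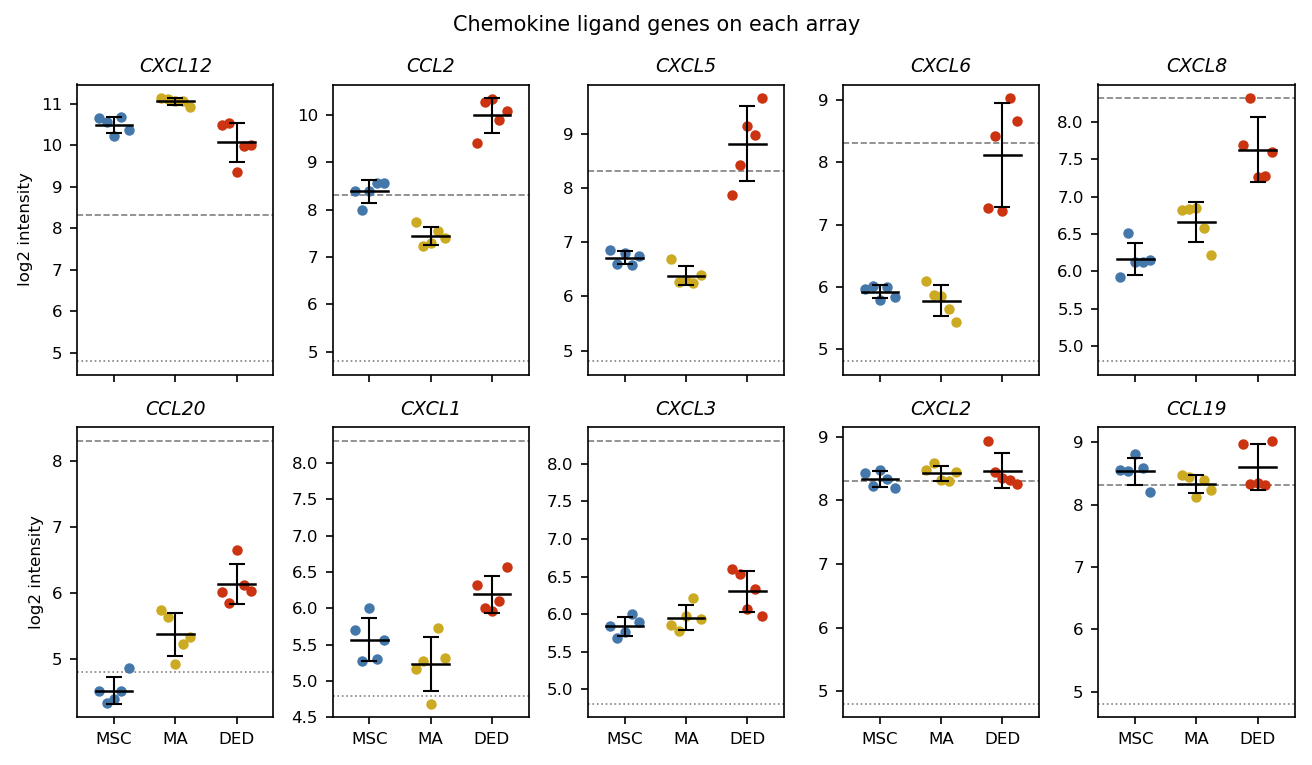
Log2 intensity of single arrays of MSC, MA and DED for the chemokine ligand genes described array by array, with the mean ± SD as bars, 1 panel a gene and a separate vertical range in each. The dashed line is the negative control 95th percentile (8.31) and the dotted line the median (4.80). All DED arrays of CCL2, CXCL5, CXCL6 and CXCL8 lie above all MA arrays, and those of CXCL12 lie below.

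CCL2, monocyte chemoattractant protein 1, had the largest difference of any member between DED and MA. It read 8.40, 7.99, 8.39, 8.56 and 8.57 in MSC. It read 7.73, 7.24, 7.30, 7.54 and 7.41 in MA. In DED it read 9.41, 10.26, 10.33, 9.89 and 10.07. The 3 groups did not overlap, with MA lowest and DED highest. CCL2 fell by 0.94 (SE 0.161, limma adjusted p = 9.9e-05) in MA against MSC and rose by 2.55 (SE 0.161, limma adjusted p = 3e-10), a fold of 5.85, in DED against MA. DED also exceeded MSC by 1.61 (limma adjusted p = 8.6e-08), a fold of 3.05. Of the other monocyte chemoattractants, CCL7 differed by 0.32 (limma adjusted p = 0.12) and CCL8 by 0.12 (limma adjusted p = 0.64) between DED and MA.

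CXCL12, also called stromal cell-derived factor 1, moved the other way. It read 10.65, 10.55, 10.22, 10.67 and 10.36 in MSC. It read 11.14, 11.11, 11.05, 11.05 and 10.92 in MA, above every MSC and DED array. In DED it read 10.48, 10.53, 9.36, 9.97 and 10.00, with array 3 lowest. The rise in MA against MSC was 0.56 (SE 0.171, limma adjusted p = 0.015), and the difference of DED from MA was -0.99 (SE 0.171, limma adjusted p = 0.00018), a fold of 1.98. DED and MSC overlapped, with a difference of -0.42 (limma adjusted p = 0.066). Of the other CXC ligands outside the ELR and CXCR3 groups, CXCL16, which exists as a membrane-bound scavenger receptor and a shed form, was 0.44 higher in MA than in MSC (SE 0.154, limma adjusted p = 0.035), a call lost without MSC array 2, 3 or 4 or MA array 1, 2 or 5 and in a fit of only these groups (limma adjusted p up to 0.11). CXCL13, CXCL14 and CXCL17 passed in no comparison. The interferon-inducible ligands of CXCR3, CXCL9, CXCL10 and CXCL11, had group means from 4.09 to 4.97, near the negative control median, and 0 of 3 passed in any comparison.

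CCL20, which draws dendritic cells and Th17 cells through CCR6, passed the test in all 3 comparisons, lowest in MSC and highest in DED, as CXCL8 did. It read 4.51, 4.34, 4.39, 4.51 and 4.87 in MSC. It read 5.75, 5.64, 4.93, 5.23 and 5.33 in MA, and 6.02, 5.85, 6.65, 6.12 and 6.03 in DED. The groups did not overlap, although the MSC mean lay under the negative control median and the DED mean, 6.13 ± 0.305 (SD, n = 5), under the 90th percentile. The differences were 0.85 (SE 0.165, limma adjusted p = 0.00035) for MA against MSC, 0.76 (limma adjusted p = 0.0016) for DED against MA and 1.61 (limma adjusted p = 1.2e-07) for DED against MSC. Its promoter match lies on the opposite strand, 79 bases before the start, within chr2:227813753-227813837 (GRCh38.p14, plus strand), which is shown beside those of the ELR ligands because, of the CC ligands with a promoter window, it alone holds this motif.
CCL20: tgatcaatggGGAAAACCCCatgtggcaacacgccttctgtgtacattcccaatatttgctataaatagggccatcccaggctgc

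CCL19, a ligand of CCR7, was above the 95th percentile and did not pass in any comparison. It read 8.55, 8.54, 8.81, 8.59 and 8.20 in MSC, 8.47, 8.44, 8.13, 8.40 and 8.23 in MA, and 8.98, 8.34, 8.35, 8.31 and 9.03 in DED. The groups overlapped, with DED arrays 1 and 5 highest, and limma adjusted p-values ran from 0.24 to 0.81. Among 8 lymphocyte and dendritic cell homing ligands, CCL20 was thus the 1 that passed.

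MA against MSC covers the differentiation step together with any difference in medium. Here 6 of 39 members passed, 15.4%, against 33.0% of all genes: CCL20, CXCL12, CXCL16 and CXCL8 rose (15.4% of all genes did) and CCL2 and CCL18 fell (17.6%). Arrays did not overlap for CCL2, CCL20 and CXCL12, 3 of 39, against 27.0% of all genes. The count was 3 without MSC array 4 and also 3 without MA array 2. CCL18, a product of macrophages and dendritic cells, differed by -0.45 (limma adjusted p = 0.03), and this call was lost without MSC array 2, 4 or 5 or MA array 2, 3 or 5 (limma adjusted p up to 0.09). The median difference was -0.03 over the members and -0.002 over all genes.

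DED against MSC sets the cells after conditioned medium against the undifferentiated line. Here 8 members passed, 20.5%, against 33.4% of all genes, and all 8 rose, where 17.1% of all genes rose and 16.4% fell. They were CCL2, CCL20, CCL23, CXCL1, CXCL3, CXCL5, CXCL6 and CXCL8. A log2 rise of 1 or more was seen in 5 members, 12.8%, against 4.96% of all genes. CCL20 was among these 5, with an MSC mean under the negative control median, so no fold is given for it. Arrays did not overlap for 6 members, 15.4%, against 25.1% of all genes, and 1 of these, CCL27, had not passed (-0.45, limma adjusted p = 0.076). CCL23, a ligand of CCR1, had means of 5.11 in MSC, 5.55 in MA and 5.98 in DED, a difference of 0.87 between the ends (SE 0.219, limma adjusted p = 0.0039). The median difference was 0.116 over the members and 0.028 over all genes. Each group serves in more than 1 comparison, so the 3 counts are not independent.

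The remaining 26 members passed in no comparison. Their group means ran from 3.95 to 8.03, and 6 had all group means at or under the negative control median. DED against MA gave differences from -0.25 (CXCL17) to 0.32 (CCL7), with a lowest limma adjusted p of 0.12. MA against MSC gave -0.47 (CCL27) to 0.27 (PF4), and DED against MSC -0.45 (CCL27) to 0.25 (CCL3L3). XCL1 and CX3CL1, made by lymphocytes and by endothelium and neurons, passed in no comparison.

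Genes that rose lay beside genes that did not in both clusters. Along chromosome 4 the order is CXCL8, CXCL6, PF4V1, CXCL1, PF4, PPBP, CXCL5, CXCL3 and CXCL2, of which PF4V1 was not analysed here. Between DED and MA the platelet ligands PF4 (-0.07) and PPBP (0.07) did not pass and lie between CXCL1 and CXCL5, which rose. Along chromosome 17 CCL2 is followed by CCL7 (0.32), CCL11 (-0.03), CCL8 (0.12) and CCL1 (0.19), none of which passed, with CCL13 not analysed here.

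**Figure D3:**
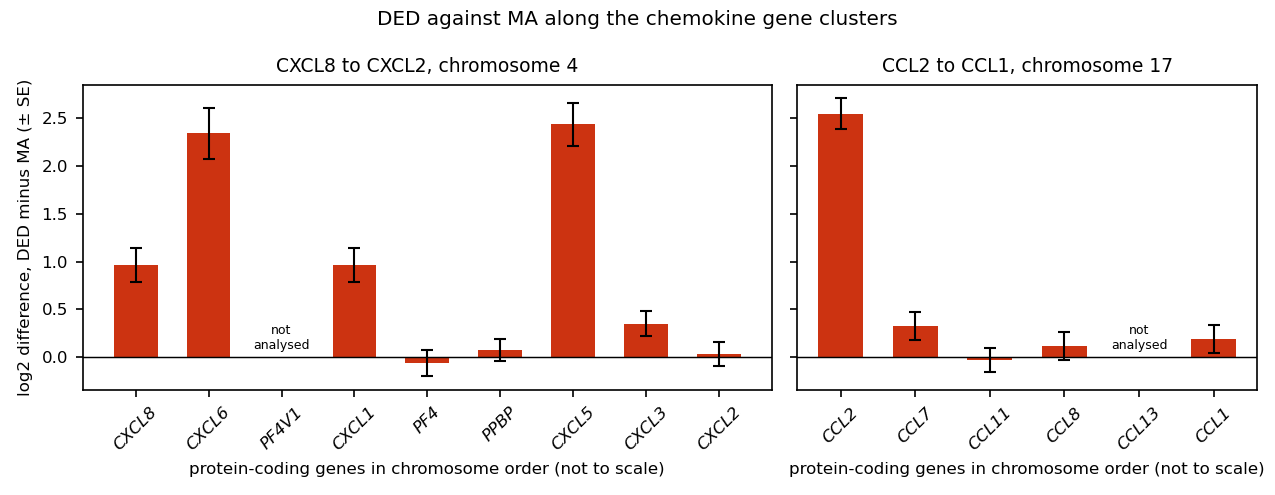
Log2 differences between groups for the chemokine ligand genes of the chromosome 4 and chromosome 17 clusters, in their order along the chromosome. CXCL6 (2.34) and CXCL5 (2.44) stand apart in DED against MA from PF4 (-0.07) and PPBP (0.07), and CCL2 (2.55) from CCL7 (0.32).

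Among the proteins that receive these ligands, the chemokine receptors of leukocytes were dim. None of 16 measured had a group mean above the negative control 95th percentile. Between DED and MA 2 rose and 1 fell: CXCR2, the receptor of the ELR ligands, by 0.57 (limma adjusted p = 0.0047) from an MA mean of 4.67 under the negative control median, CCR9 by 0.48 (limma adjusted p = 0.018) and CCR10 by -0.46 (limma adjusted p = 0.013). The CCR9 call was lost without MA array 2 or DED array 1, and the CCR10 call without DED arrays 1 and 3 together. Between MA and MSC 3 rose, a count that was 0 without MSC array 1 and 1 without MSC array 3 or 4 or MA array 2, 3, 4 or 5. Between DED and MSC 1 rose, and 2 did without DED array 1 or DED array 3. Among all genes 12.9% rose and 13.0% fell between DED and MA. Rises made up 15.4% of all genes between MA and MSC and 17.1% between DED and MSC. CXCR4, the receptor of CXCL12, named after its values had been seen, had means of 5.58, 5.40 and 5.64 in MSC, MA and DED and passed in no comparison.

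Among the atypical receptors 3 had a group mean above the negative control 95th percentile in DED, 2 in MA and 1 in MSC. ACKR1, which binds many inflammatory CC and CXC ligands and carries them across endothelium, read 5.15, 4.95, 5.55, 4.41 and 4.71 in MSC. It read 5.59, 5.71, 5.53, 6.12 and 6.03 in MA, and 9.57, 10.14, 10.43, 9.26 and 9.34 in DED. DED lay above all other arrays, while MA array 3 lay just under MSC array 3. The rise in DED against MA was 3.95 (SE 0.224, limma adjusted p = 7.5e-11), a fold of 15.5.

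ACKR4, which takes up CCL19, CCL21 and CCL25, read 8.39, 8.24, 8.03, 8.06 and 8.02 in MSC. It read 12.65, 12.90, 12.89, 12.76 and 12.94 in MA, and 11.18, 11.48, 8.41, 10.13 and 10.52 in DED. The groups did not overlap, and DED array 3 lay just above MSC. ACKR4 rose by 4.68 (SE 0.362, limma adjusted p = 2.2e-09) in MA against MSC and differed by -2.48 (limma adjusted p = 2.5e-05) in DED against MA. ACKR3, which scavenges CXCL12, had means of 9.73, 10.17 and 11.34 and rose by 1.17 in DED against MA (SE 0.171, limma adjusted p = 2.4e-05). ACKR2, a scavenger of inflammatory CC ligands, rose by 0.57 (limma adjusted p = 0.014). ACKR2 and ACKR3 were named after their values had been seen. Of the 5 atypical receptors 3 rose and 1 fell between DED and MA, against 12.9% and 13.0% of all genes. Between MA and MSC 2 rose (15.4% of all genes), and between DED and MSC 4 rose (17.1%).

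Of 14 NF-kappaB factors and inhibitors, 4 rose and 0 fell between DED and MA, against 12.9% and 13.0% of all genes. Between MA and MSC 3 rose and 3 fell (15.4% and 17.6% of all genes). Between DED and MSC 6 rose and 0 fell (17.1% and 16.4% of all genes). NFKBIZ, a nuclear co-regulator of secondary response genes, rose by 1.86 in DED against MA (SE 0.140, limma adjusted p = 3.8e-09), from 11.30 to 13.16. RELB, a subunit of the alternative pathway, had means of 10.05 in MSC, 8.69 in MA and 10.27 in DED. TNFAIP3, which restrains the pathway, rose by 1.87 in MA against MSC (limma adjusted p = 5.5e-09) and differed by 0.17 between DED and MA (limma adjusted p = 0.47).

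Of 20 receptors and adaptors of inducing cytokines, 7 rose and 3 fell between DED and MA, against 12.9% and 13.0% of all genes. Between MA and MSC 7 rose and 2 fell (15.4% and 17.6% of all genes). Between DED and MSC 8 rose and 1 fell (17.1% and 16.4% of all genes). TLR4, the receptor of bacterial lipopolysaccharide, had means of 7.43, 9.28 and 12.87 in MSC, MA and DED, and rose by 3.59 in DED against MA (SE 0.197, limma adjusted p = 4.6e-11). IL1R1, the signalling receptor of IL-1, had means of 9.36, 12.02 and 12.90 and rose by 0.88 in that comparison (limma adjusted p = 0.0055). Its partner IL1RAP rose by 0.90 (limma adjusted p = 2.7e-05), and IL17RC, a subunit of the IL-17 receptor, differed by -0.76 (limma adjusted p = 0.00096).

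**Figure D4:**
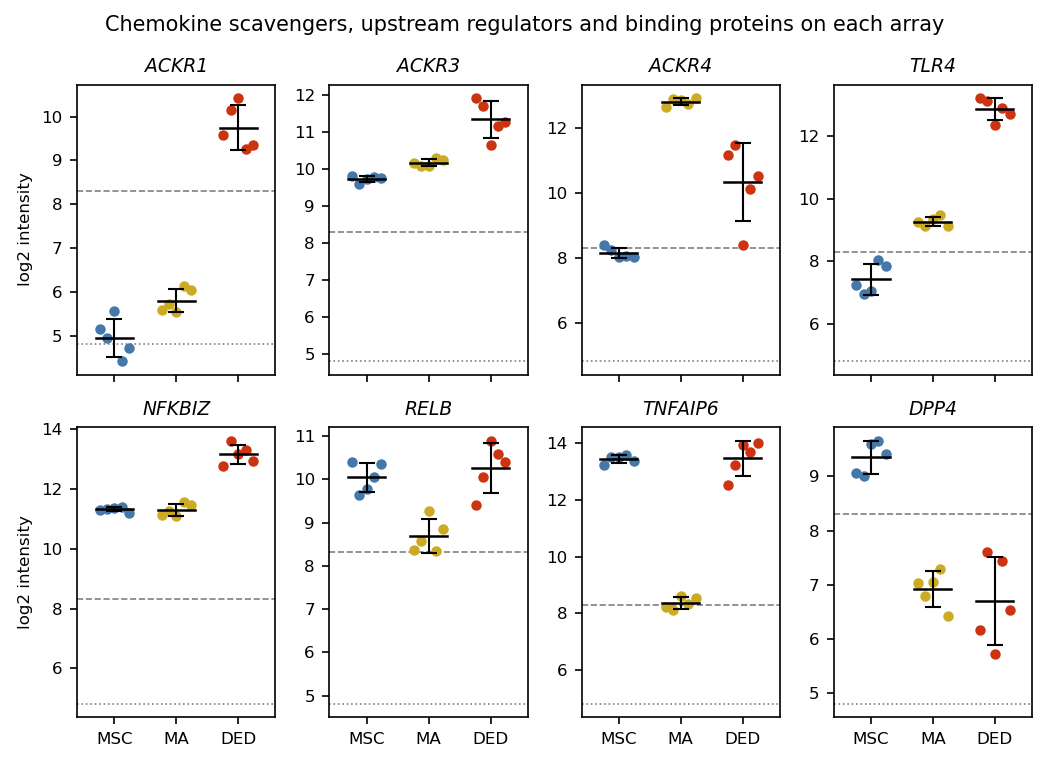
Log2 intensity of single arrays of MSC, MA and DED for receptors, regulators and binding proteins of chemokines, with the mean ± SD as bars and a separate vertical range in each panel. The dashed and dotted lines are the negative control 95th percentile (8.31) and median (4.80). ACKR1 reaches 9.26 to 10.43 in DED against 5.53 to 6.12 in MA, and ACKR4 is highest in MA.

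Of 15 genes for processing and binding chemokines, 7 rose and 2 fell between DED and MA, against 12.9% and 13.0% of all genes. Between MA and MSC 1 rose and 7 fell (15.4% and 17.6% of all genes). Between DED and MSC 3 rose and 5 fell (17.1% and 16.4% of all genes). TNFAIP6, whose product TSG-6 binds hyaluronan and several chemokines, had means of 13.44, 8.36 and 13.48. It differed by -5.08 in MA against MSC (limma adjusted p = 1.5e-13) and by 5.11 in DED against MA (limma adjusted p = 1.1e-12), while DED and MSC differed by 0.04 (limma adjusted p = 0.93). DPP4, the surface peptidase that trims CXCL12 and other ligands, had means of 9.35, 6.92 and 6.70, and differed by -0.23 between DED and MA (limma adjusted p = 0.62). The heparan sulfate proteoglycans moved in both directions between DED and MA. SDC2 differed by -0.76 (limma adjusted p = 1.2e-05) and SDC3 by 0.84 (limma adjusted p = 3e-05). SDC4 differed by 0.76 (limma adjusted p = 2.4e-05), SDC1 by -0.45 (limma adjusted p = 0.047) and GPC1 by -0.19 (limma adjusted p = 0.29). The MA and DED means of SDC1 lay under the negative control median. SDC1, SDC4 and GPC1 were named after their values had been seen.

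Leukocytes and carcinoma cells also transcribe chemokines, and their markers were read on the same arrays. Between DED and MA 12.9% of all genes rose and 13.0% fell. Of 14 leukocyte markers 3 rose in that comparison, CD163, CD14 and NKG7, and CD68 fell. CD163, a scavenger receptor of macrophages, rose by 4.99 (SE 0.250, limma adjusted p = 1.6e-11), and CD14, a co-receptor of TLR4, by 1.40 (limma adjusted p = 7.6e-05). The list mean ran from 5.68 to 5.94 over MSC arrays, 5.78 to 5.96 over MA arrays and 6.18 to 6.37 over DED arrays. In each group 1 marker lay above the negative control 95th percentile, CD68 in MSC and MA and CD163 in DED. PTPRC, which encodes the pan-leukocyte antigen CD45, had means of 5.62 in MSC, 5.51 in MA and 5.76 in DED and did not pass (limma adjusted p = 0.37 for DED against MA). Of 10 breast carcinoma markers 0 rose or fell between DED and MA. Their mean ran from 5.47 to 5.69 in MSC, 5.41 to 5.53 in MA and 5.54 to 5.67 in DED. In each group 1 of them, KRT8, lay above the negative control 95th percentile. It read 8.88 to 9.03 in MSC, 8.59 to 9.26 in MA and 8.83 to 9.61 in DED. EPCAM, an epithelial adhesion molecule, lay under the negative control median in all groups. PTPRC, KRT8 and EPCAM were named after their values had been seen. Of 8 endothelial markers 1 rose. Of 12 adipocyte markers 11 fell between DED and MA, and their mean was 10.3 in DED array 1 against 9.0 to 9.34 in the other DED arrays. The part of these markers in the chemokine differences was not tested.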

How the data were processed

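The authors deposited 1 table of log2 intensity values for all arrays, and the submitters' processing notes name RMA and Transcriptome Analysis Console. RMA removes background, puts arrays on 1 distribution and joins the probes of a set. The sources used here give neither versions nor a genome build. Probe sets were named from the platform annotation, and the highest-mean probe set was kept per gene, without a filter on dim genes. Groups come from the sample titles. A fit of group means to all 15 arrays with limma 3.58.1 (R 4.3.3) and its eBayes step gave two-sided p-values, adjusted by Benjamini-Hochberg over 17687 genes, with 0.05 as threshold. The test was tested on simulated data in which 200 of the 17687 genes changed. That is a smaller share than was called on the real arrays, so the share recovered there may differ. In DED against MA it recovered 42% of changes of 1.5-fold and 90% of changes of 2-fold. For 1.5-fold the share was 58% in MA against MSC and 54% in DED against MSC. A gene that did not pass may therefore have changed by a small amount. The number of arrays limits the precision.

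The members, lists and tests were chosen with earlier results of these data known. Values per array were printed for members past the test with non-overlapping arrays and a group mean above the negative control 95th percentile, or with a difference of 1 or more on the log2 scale. CCL20 falls under the latter. From each other list the largest rise and fall per comparison could be named. A fold is given only where the lower group lies above the negative control median. Motifs were counted as exact matches on both strands of RefSeq promoter windows. Promoter identity came from a global alignment (Biopython 1.88), and figures from Python 3.11.15 with matplotlib 3.10.9. Alternatives were other normalizations, filters, model settings, a block for the replicate number, and leaving out single arrays. Leaving out DED arrays 1 and 3 together was added after seeing the data. The count for 1 class of ligands is not reported here.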

Additional observations from a re-analysis of the deposited data

Results flagged for a closer look

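In 4 of 105 groups of 5 arrays checked, over 35 genes, 1 array lay far from the other 4, and chance flags about 1 group in 20. CXCL2 read 8.94 in DED array 1 and 8.26 to 8.44 in the other DED arrays. IL1RAP read 8.43 in DED array 1 and 8.78 to 8.84 in the others. CCR10 read 6.09 in MA array 3 and 6.53 to 6.65 in the others. CD163 read 6.69 in MSC array 3 and 5.99 to 6.15 in the others.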

How the results depend on the processing

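In DED against MA none of the 7 calls among chemokine ligand genes was lost under any alternative run, except that genes left out by a filter were not tested. Keeping only genes with a mean above the negative control 95th percentile in at least 1 group left 5 members. Of these 5, 2 passed in MA against MSC, 3 in DED against MA and 3 in DED against MSC. CXCL5 was kept only through its DED mean (8.82, against 6.72 in MSC and 6.38 in MA). Its calls under this filter are therefore no separate support. Leaving out each array in turn gave 3 to 7 calls in MA against MSC, 7 to 9 in DED against MA and 8 to 10 in DED against MSC. Deviations of same-numbered arrays correlated between -0.108 and 0.087 over all genes, so no pairing by number was seen at that scale. Arrays with different numbers were not set beside them, and a pairing that affects only some genes was not tested. With the replicate block the counts were 7, 7 and 9, and CXCL12 passed in DED against MSC (limma adjusted p = 0.035). Members above the negative controls numbered 9 at the 90th and 1 at the 99th percentile. No direction of a called gene reversed. Over single members, 910 alternatives kept the call, 21 lost it and 20 gained it. Calls near the threshold were CXCL8, CXCL16 and CCL18 in MA against MSC and, among those missed, CXCL3 in DED against MA and CXCL12 in DED against MSC, and the cause was not tested. Members under the negative control 95th percentile are limited by their signal over background.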
